A study of Homo sapiens with 6 samples.

Results

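The genes that encode the core splicing machinery and its best known regulators were examined in HMLE cells, an immortalized human mammary epithelial cell line widely used to model the epithelial-mesenchymal transition (EMT). Members were all genes whose current symbol begins with HNRNP, SRSF, SNRP, SF3A, SF3B, LSM or PRPF and goes on with capital letters or digits only. This rule found 87 of the 20046 genes with a probe. They were 28 HNRNP genes, 12 SRSF genes, 12 SNRP genes, 9 SF3A and SF3B genes (here SF3), 15 LSM genes and 11 PRPF genes. Where a gene had several probes, the probe with the highest mean was taken.

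Expression was measured on 6 Illumina HumanHT-12 v4 arrays, 1 for each of 6 conditions. Vector cells, so named in the labels, are taken to carry an empty retroviral vector, though the study's text calls the array control a vehicle control. Snail cells expressed the transcription factor Snail (SNAI1) ectopically. TGF-β cells were given the cytokine, at 1 ng/mL according to the labels, although the culture methods name another dose. The methods describe hygromycin selection of cells with the empty or Snail vector, and also stably expressing cells received from another laboratory. Which of these were put on the arrays is not stated. Neither the labels nor the methods say whether the TGF-β cells carried the empty vector. Each of these 3 backgrounds was also measured after feeding with 20 µM docosahexaenoic acid (DHA), an omega-3 fatty acid supplied on serum albumin, and these arrays are named DHA, Snail+DHA and TGF-β+DHA. The study asked how EMT and DHA, which it links to less and more stable plasma membrane rafts, alter the transcriptional program. With 1 array per condition, a difference between 2 arrays has no replicate check, and cells of 1 line stand for each condition. All values are log2 levels of quantile normalized signal, and levels are compared only within a probe.

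Between 37.8% and 43.8% of probes were above background, and in each background the share was lower on the array with DHA. The part of this share in the differences described here was not tested. The labelled cell type was checked against marker genes. KRT5, KRT14 and ITGA6 were above background on all 6 arrays, whereas CDH1 and EPCAM were above background on 4 and not on the Snail or Snail+DHA arrays. The mesenchymal markers VIM, CDH2 and TWIST1 were above background on all 6, FN1 on 5 and ZEB1 on 1. The probe for SNAI1 was not above background on any of the 6 arrays (5.88 to 6.02), so it could not check the Snail label. Among markers of other cell types, PTPRC, CD3E, CDH5 and VWF were above background on no array, PECAM1 on 1, and CD14 and LYZ on 6, at levels of 6.42 to 7.37.

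Splicing removes introns through small nuclear ribonucleoproteins (snRNPs), which are assembled around small nuclear RNAs. SNRP genes encode the Sm proteins that form a ring on most of these RNAs, and proteins specific to the U1 snRNP (SNRPA, SNRPC) and U2 snRNP (SNRPA1, SNRPB2). The SF3A and SF3B complexes hold U2 at the branch point, the LSm proteins form a similar ring on U6, and PRPF proteins belong to the tri-snRNP and the activated spliceosome. SR proteins (SRSF) bind exonic enhancers and generally promote exon inclusion, while hnRNPs coat the pre-mRNA and often repress exons. EMT is known for changes in exon choice, with CD44 as the textbook case, and HNRNPM and the epithelial regulators ESRP1 and ESRP2 are known to act on it.

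The promoters of 6 members whose levels the following paragraphs turn on are shown, chosen after their values were seen. They are SNRPB, SNRPB2, SNRPC and SNRPF, which were at least 1.5-fold higher on the TGF-β+DHA array than on the TGF-β array, together with SNRPA1 and HNRNPAB, which were lowest on the Snail array. Each sequence is the 250 bases before the annotated start from RefSeq (GRCh38.p14), 5′ to 3′ on the strand of the gene, with matches to CCGGAAG, the core bound by ETS factors, and to CCAAT, the box bound by NF-Y, in capitals on either strand.
SNRPB, chr20:2470790-2471039, minus strand: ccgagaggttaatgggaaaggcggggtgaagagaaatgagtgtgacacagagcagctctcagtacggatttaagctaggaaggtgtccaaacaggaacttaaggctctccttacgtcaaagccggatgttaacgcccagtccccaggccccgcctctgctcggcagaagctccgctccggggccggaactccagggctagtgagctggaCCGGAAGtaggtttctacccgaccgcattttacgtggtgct
SNRPB2, chr20:16729776-16730025, plus strand: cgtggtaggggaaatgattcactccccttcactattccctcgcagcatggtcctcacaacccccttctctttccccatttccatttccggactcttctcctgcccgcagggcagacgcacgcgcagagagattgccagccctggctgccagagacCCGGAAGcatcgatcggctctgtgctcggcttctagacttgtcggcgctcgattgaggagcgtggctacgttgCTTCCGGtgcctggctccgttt
SNRPC, chr6:34757255-34757504, plus strand: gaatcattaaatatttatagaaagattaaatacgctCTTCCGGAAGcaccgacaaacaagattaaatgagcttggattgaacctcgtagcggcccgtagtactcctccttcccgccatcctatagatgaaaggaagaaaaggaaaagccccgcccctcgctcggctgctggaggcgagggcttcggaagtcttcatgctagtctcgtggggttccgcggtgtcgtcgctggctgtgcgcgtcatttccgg
SNRPF, chr12:95858702-95858951, plus strand: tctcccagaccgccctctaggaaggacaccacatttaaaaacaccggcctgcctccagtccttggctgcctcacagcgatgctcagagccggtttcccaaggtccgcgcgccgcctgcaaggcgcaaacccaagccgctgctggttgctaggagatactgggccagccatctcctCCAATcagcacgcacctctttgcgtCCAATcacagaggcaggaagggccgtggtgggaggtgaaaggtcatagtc
SNRPA1, chr15:101295249-101295498, minus strand: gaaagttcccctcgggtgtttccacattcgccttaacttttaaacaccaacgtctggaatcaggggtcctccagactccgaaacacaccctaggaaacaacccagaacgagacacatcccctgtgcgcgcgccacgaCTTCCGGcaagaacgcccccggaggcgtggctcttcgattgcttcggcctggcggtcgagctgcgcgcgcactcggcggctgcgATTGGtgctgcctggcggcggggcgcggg
HNRNPAB, chr5:178204283-178204532, plus strand: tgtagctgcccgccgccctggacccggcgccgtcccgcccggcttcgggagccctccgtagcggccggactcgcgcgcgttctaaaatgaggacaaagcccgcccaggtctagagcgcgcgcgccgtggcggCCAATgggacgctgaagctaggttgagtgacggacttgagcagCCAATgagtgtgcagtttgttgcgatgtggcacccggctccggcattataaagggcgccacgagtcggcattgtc

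Of the 82 members above background on at least 1 array, 51 had exactly 1 promoter listed. CCGGAAG was found in 17 of these 51 (33.3%) and in 8.9% of all 22114 promoters of genes with 1 listed promoter. It occurred in 5 of 7 SNRP promoters and in 5 of 6 SF3 promoters. In SNRPC its matches on the opposite strands overlap. CCAAT was found in 26 member promoters (51%) against 33.4% of all promoters, and in 11 of 14 HNRNP promoters. The E-box CAGGTG, a sequence Snail is known to bind, was found in 6 member promoters (11.8%) against 17.6% of all, and in 0 of 7 SNRP promoters. The E-box CACGTG, known for binding by MYC, was found in 4 (7.84%) against 6.34% of all, and those 4 were HNRNP genes. All motifs were searched on both strands, and a match describes the letters only.

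Detection differed little among families. Of the 87 members, 82 were above background on at least 1 array and 76 on all 6, against 13467 of 20046 genes in all on at least 1. The 5 members above background on no array were HNRNPCL1, SRSF12, SF3A1, LSMEM1 and LSMEM2. SF3A1 encodes a core subunit of SF3A, and its single probe read 6.03 to 6.43. LSMEM1 and LSMEM2 match the rule by their letters but do not encode LSm proteins. HNRNPKP3, LSM11, LSM14B, PRPF39, PRPF40B and SNRPE were above background on some arrays only. HNRNPA1P10, HNRNPA1P33, HNRNPA3P1 and HNRNPKP3 are transcribed pseudogenes. HNRNPA1, HNRNPA1L2 and the HNRNPA1 pseudogenes, and likewise HNRNPC and the HNRNPCL genes, are near-identical copies that a probe may not separate.

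The additive contrasts for DHA, Snail and TGF-β, a grouping of arrays and a difference of differences were tested with limma over all 13467 genes above background, and no member passed an adjusted p of 0.05 in any of them. For DHA, fitted across the 3 backgrounds, 0 members and 0 genes (0%) passed, while 5 members (6.1%) and 1696 genes (12.6%) had an unadjusted p under 0.05. For Snail, fitted with and without DHA, 0 members passed against 1051 genes (7.8%), with 6 members and 2959 genes at an unadjusted p under 0.05. For TGF-β, 0 members passed against 8 genes (0.0594%), with 4 members and 792 genes at an unadjusted p under 0.05. The Snail and TGF-β arrays against the other 4, the grouping by raft stability that the study used, gave 0 members and 0 genes (0%). At an unadjusted p under 0.05 there were 7 members and 1002 genes. In this grouping 22 of the 82 member estimates were above 0 (26.8%), against 52.4% of genes. The median estimate was −0.10 for members and 0.01 for all genes. Every family had more genes below 0 than above, with 9 of 12 SNRP genes (median −0.30) and 12 of 13 LSM genes (median −0.11) below. Whether members as a set differed from all genes here was not tested. The DHA difference in induced cells minus that in Vector cells gave 0 members against 37 genes (0.275%), with 8 members and 1501 genes at an unadjusted p under 0.05. The fits leave 2 residual degrees of freedom in the additive fit, 4 in the grouping and 1 in the difference of differences. Each gene's variance was moderated by limma toward a trend over all genes, so these p-values also rest on variance borrowed from other genes. They set each contrast against the departure of single arrays from the model, which is not a spread between replicates. In the additive fit that departure is how far the DHA difference varied between backgrounds. In the grouping it also holds the differences between conditions placed in the same group. The median standard error of a member was 0.18 for DHA and 0.22 for Snail and for TGF-β.

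What follows describes levels on single arrays, with limma estimates beside them. Where several arrays are said to lie above or below the others, the share of all genes that do so was not counted. On the TGF-β array 31 of the 82 members had their lowest level (37.8%), against 15.7% of all genes. On the TGF-β+DHA array 26 members had their highest level (31.7%), against 17.2% of all genes. When the arrays were scaled to equal medians and not quantile normalized (common-median scaling), these counts were 15 members (18.3%) against 8.64% of genes and 20 members (24.4%) against 15.3%. Under that scaling other arrays held more of the extremes, with 34 members lowest on Snail+DHA (41.5%, against 32.4% of genes) and 30 highest on Vector (36.6%, against 19.3%). The median deviation of the members on TGF-β from their own means was −0.11 with quantile normalization and 0.02 with common-median scaling. For all genes it was 0.01 and 0.12, so the members lay below all genes under both.

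**Figure D1:**
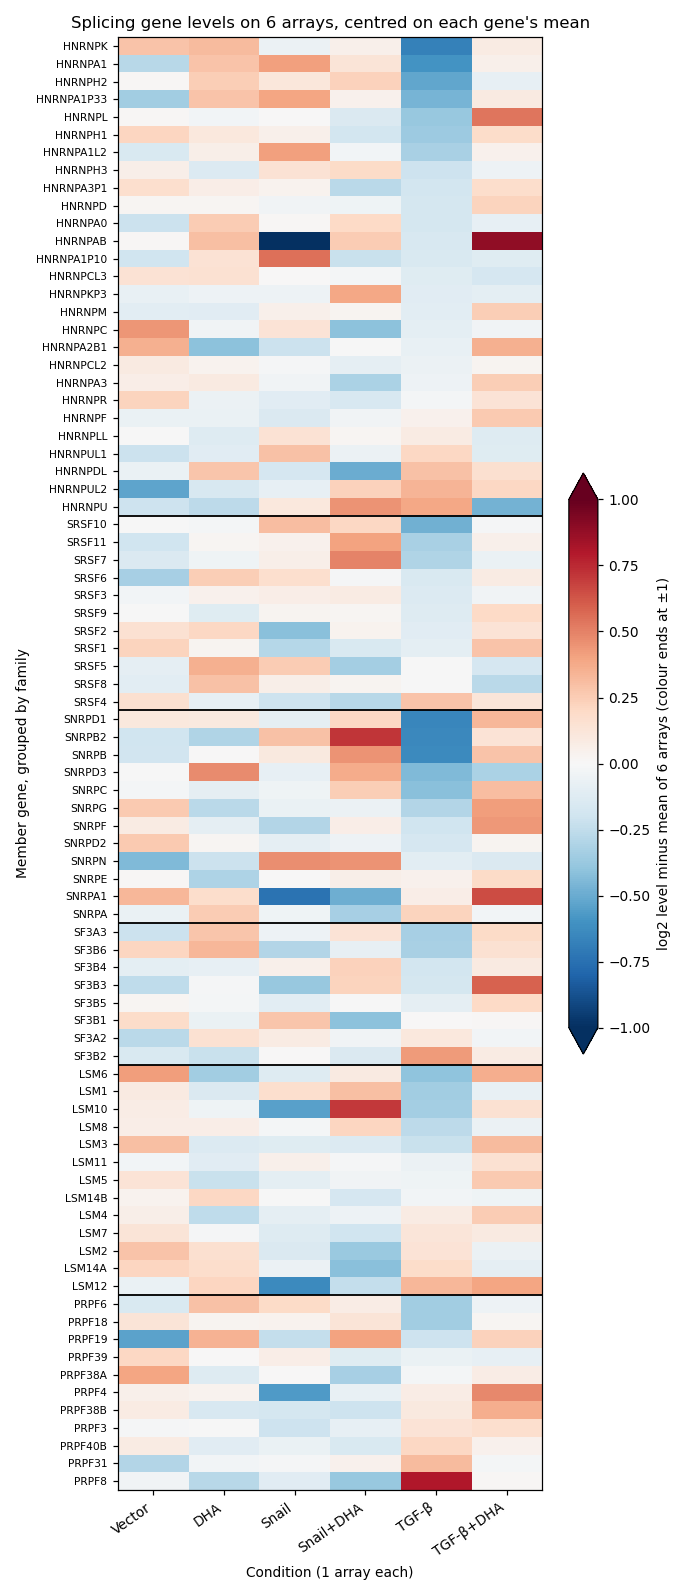
Log2 level of each of the 82 members above background on at least 1 array, minus its own mean over the 6 arrays (colour, ending at ±1), by condition (columns, 1 array each) and family (rows, divided by black lines). The TGF-β column holds the lowest level of 31 members and the TGF-β+DHA column the highest level of 26.

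Of the 12 SNRP genes, 7 were lowest on TGF-β and 6 highest on TGF-β+DHA (4 and 6 under common-median scaling). In the TGF-β against Vector pair 9 of 12 SNRP genes were below 0 with a median difference of −0.41, and in TGF-β+DHA against TGF-β 10 of 12 were above 0 with a median of 0.61. The medians of all genes in these pairs were 0.03 and −0.03. Both pairs share the TGF-β array, so 1 set of low readings enters both. Under common-median scaling the SNRP medians were −0.39 and 0.51, against 0.06 and −0.17 for all genes.

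SNRPB, which encodes the Sm proteins B and B′, read 11.05 on Vector, 11.25 on DHA, 11.34 on Snail, 11.69 on Snail+DHA, 10.61 on TGF-β and 11.53 on TGF-β+DHA. The TGF-β array was the lowest, and each array with DHA was above its partner. The limma estimate for DHA was 0.49 with a standard error of 0.19 (adjusted p = 0.375), and TGF-β+DHA exceeded TGF-β by 0.92. A second SNRPB probe gave 0.64 for that pair, while in DHA against Vector it was −0.11 where the representative probe gave 0.19.

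SNRPD1, another Sm ring protein, read 7.92 on Vector, 7.91 on DHA, 7.72 on Snail, 8.02 on Snail+DHA, 7.16 on TGF-β and 8.15 on TGF-β+DHA. The TGF-β array stood below all 5 others, which lay between 7.72 and 8.15, and TGF-β+DHA exceeded it by 0.99. In the grouping of Snail and TGF-β against the rest, SNRPD1 was lower by 0.56 with a standard error of 0.22 (limma, adjusted p = 0.654). SNRPD1 is measured by a single probe.

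SNRPB2, the U2 protein B″, read 10.85 on Vector, 10.74 on DHA, 11.34 on Snail, 11.76 on Snail+DHA, 10.40 on TGF-β and 11.18 on TGF-β+DHA. Both Snail arrays were above all 4 others. The Snail estimate was 0.75 with a standard error of 0.25 (limma, adjusted p = 0.128). A second probe gave 0.74 for Snail against Vector, where the representative probe gave 0.49.

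SNRPC, a U1 protein that helps to recognise the 5′ splice site, ranged from 10.30 on TGF-β to 11.02 on TGF-β+DHA, with Vector at 10.69. SNRPF, an Sm ring protein, ranged from 12.76 on Snail to 13.48 on TGF-β+DHA, and SNRPG, another protein of the ring, from 12.73 on TGF-β to 13.44 on TGF-β+DHA. All 3 were highest on TGF-β+DHA, which exceeded TGF-β by 0.73, 0.63 and 0.71. SNRPD3 did not follow them. It read 7.81 on Vector, 8.28 on DHA, 7.72 on Snail, 8.18 on Snail+DHA, 7.36 on TGF-β and 7.49 on TGF-β+DHA, so both TGF-β arrays were the lowest. Its TGF-β estimate was −0.62 with a standard error of 0.21 (limma, adjusted p = 0.802).

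SNRPA1, the U2 protein A′, was the SNRP gene with the widest range. It read 11.87 on Vector, 11.72 on DHA, 10.80 on Snail, 11.05 on Snail+DHA, 11.61 on TGF-β and 12.19 on TGF-β+DHA. Both Snail arrays were below all 4 others, and the Snail estimate of −0.87 with a standard error of 0.23 had the lowest adjusted p of any member in that contrast (limma, 0.0635). SNRPA1 and SNRPB2, whose proteins bind U2 together, thus lay on opposite sides of Vector in Snail cells.

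SNRPN, an imprinted gene whose protein can replace SmB and which is known for expression in neurons, was high where SNRPA1 was low. It read 9.77 on Vector, 9.996 on DHA, 10.68 on Snail, 10.67 on Snail+DHA, 10.10 on TGF-β and 10.07 on TGF-β+DHA. Both Snail arrays were above the rest, and the Snail estimate was 0.79 with a standard error of 0.22 (limma, adjusted p = 0.0711). With a variance prior that does not follow the mean level, its adjusted p was 0.0432, the single member call for Snail among the alternatives. The representative probe and 2 others gave 0.90, 0.96 and 0.61 for Snail against Vector.

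SNRPE, SNRPA and SNRPD2 varied least in the family, with ranges over the 6 arrays of 0.50, 0.59 and 0.43.

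**Figure D2:**
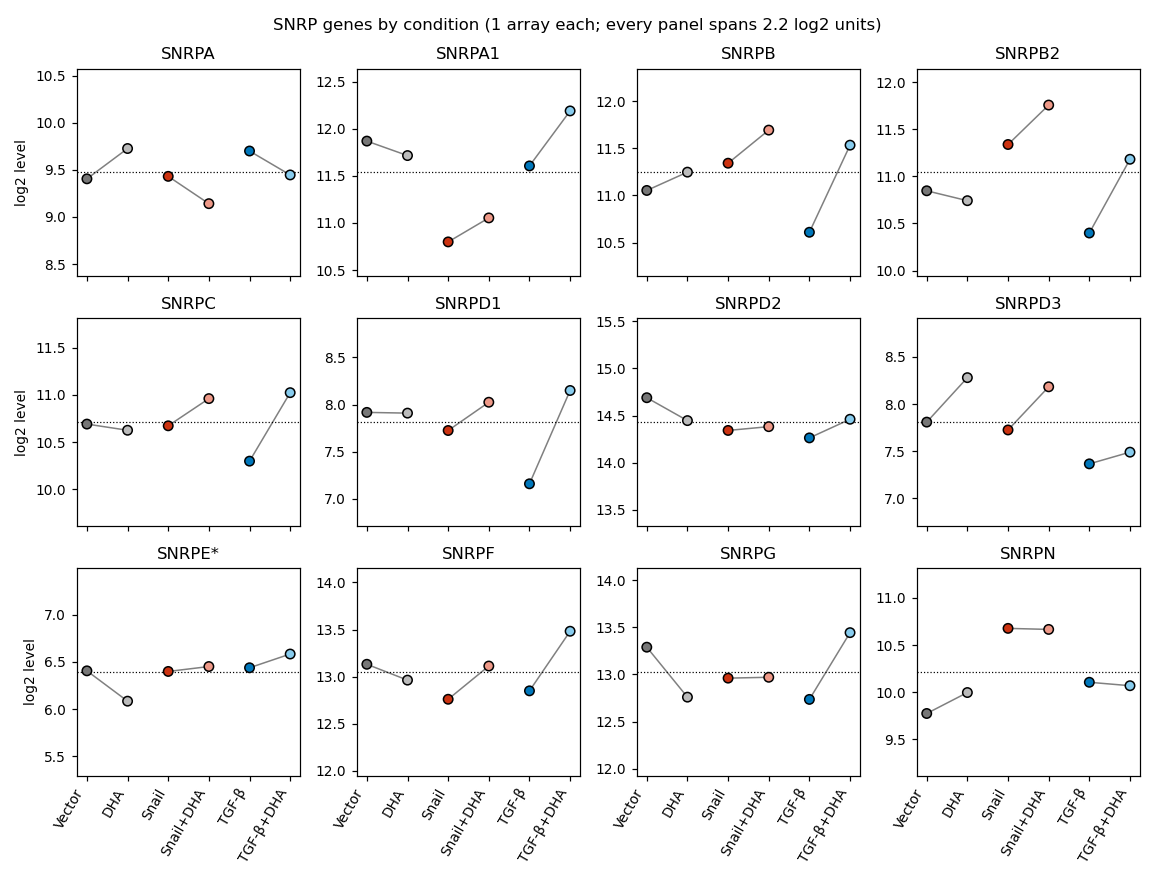
Log2 level (y) of the 12 SNRP genes by condition (x, 1 array each), with lines joining each background to its DHA-fed partner and a dotted line at the mean of the 6 arrays. The asterisk marks SNRPE, which was above background on 3 arrays, and the TGF-β point is the lowest of the 6 in 7 panels.

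The Sm ring is put together by the SMN complex, on Sm proteins methylated by the methylosome. From a list of other splicing genes, 80 of them with a probe, the group of these assembly factors had 11 genes compared. In TGF-β+DHA against TGF-β 10 of these 11 were above 0, with a median of 0.59, and 6 were at least 1.5-fold higher. Of all genes 46.7% were above 0 and 8.03% at least 1.5-fold higher, with a median of −0.03. Under common-median scaling 9 were above 0 with a median of 0.41, against −0.17 for all genes. GEMIN6, a core SMN complex protein, read 9.41 on TGF-β and 10.73 on TGF-β+DHA. STRAP, which also belongs to the SMN complex, read 10.70 and 11.51. WDR77, the partner of the arginine methylase PRMT5, read 7.79 and 8.57. In TGF-β against Vector the group had 8 of 11 genes below 0 but a median near 0 (−0.0027). In DHA against Vector 8 of 11 were above 0, with a median of 0.30 against −0.01 for all genes. Under common-median scaling these medians were 0.01 and −0.21. In Snail+DHA against Snail 8 of 11 were above 0, with a median of 0.145 against −0.02 for all genes. Under common-median scaling 4 were above 0, with a median of −0.10 against −0.18 for all genes.

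The HNRNP family held the member with the largest differences, HNRNPAB, which encodes an RNA-binding protein of the nucleus and cytoplasm. It read 12.16 on Vector, 12.45 on DHA, 10.85 on Snail, 12.41 on Snail+DHA, 11.99 on TGF-β and 13.04 on TGF-β+DHA. The Snail array was far below every other array, and each array with DHA was above its partner, by 0.28, 1.56 and 1.05. The DHA estimate was 0.96 with a standard error of 0.24 (limma, adjusted p = 0.266). With the Vector and DHA arrays left out it was 1.30 with an adjusted p of 0.00588, and across the alternatives the adjusted p ranged up to 0.799. The DHA difference in induced cells exceeded that in Vector cells by 1.02 with a standard error of 0.32 (limma, adjusted p = 0.228). The other 2 probes gave 1.93 and 1.69 for Snail+DHA against Snail and 1.65 and 1.30 for TGF-β+DHA against TGF-β.

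HNRNPK, a poly(C)-binding protein, read 11.52 on Vector, 11.55 on DHA, 11.18 on Snail, 11.29 on Snail+DHA, 10.56 on TGF-β and 11.32 on TGF-β+DHA. The TGF-β array was the lowest. The TGF-β estimate was −0.60 with a standard error of 0.24 (limma, adjusted p = 0.846). Of 3 further probes, 2 gave 0.93 and 0.88 for TGF-β+DHA against TGF-β, near the 0.76 of the representative probe, and the third gave −0.06.

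HNRNPL, which represses and activates exons through CA repeats, read 8.46 on Vector, 8.42 on DHA, 8.45 on Snail, 8.30 on Snail+DHA, 8.06 on TGF-β and 8.97 on TGF-β+DHA. It was lowest with TGF-β alone and highest with TGF-β and DHA. HNRNPA1, a common exon silencer, read 8.31 on Vector, 8.87 on DHA, 8.999 on Snail, 8.72 on Snail+DHA, 7.99 on TGF-β and 8.63 on TGF-β+DHA. Its second probe kept the low TGF-β reading, with TGF-β+DHA higher by 2.11, but differed in Snail cells, where it gave 0.88 for Snail+DHA against Snail and the representative probe −0.28.

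HNRNPU, a nuclear scaffold protein, and its relative HNRNPUL2 were above Vector on the TGF-β array. HNRNPU read 8.32 on Vector, 8.27 on DHA, 8.63 on Snail, 8.97 on Snail+DHA, 8.92 on TGF-β and 8.06 on TGF-β+DHA. TGF-β was thus above Vector by 0.60 and TGF-β+DHA below TGF-β by 0.86, while the second HNRNPU probe gave −0.09 and −0.12. HNRNPUL2 read 9.09 on Vector, 9.45 on DHA, 9.53 on Snail, 9.84 on Snail+DHA, 9.95 on TGF-β and 9.82 on TGF-β+DHA, so Vector was the lowest. Its TGF-β estimate was 0.62 with a standard error of 0.24 (limma, adjusted p = 0.846).

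HNRNPA2B1, a reader of RNA in splicing and transport, read 13.14 on Vector, 12.37 on DHA, 12.57 on Snail, 12.78 on Snail+DHA, 12.71 on TGF-β and 13.14 on TGF-β+DHA. DHA was below Vector by 0.77, but both other arrays with DHA were above their partners. The DHA difference in induced cells minus that in Vector cells was 1.09 with a standard error of 0.27, the lowest adjusted p of any member in that contrast (limma, 0.138). The other HNRNPA2B1 probes had smaller gaps in the same direction, at 8.46, 10.29 and 7.79 on Vector and 8.20, 9.86 and 7.57 on DHA. Each was also higher on Snail+DHA than on Snail and on TGF-β+DHA than on TGF-β. HNRNPM, a known regulator of CD44 exons, and HNRNPLL, known for CD45 exons in lymphocytes, had small ranges in their representative probes. There HNRNPM ranged from 11.36 to 11.72 and HNRNPLL from 8.02 to 8.29. Other HNRNPM probes above background on all 6 arrays ranged wider, from 9.76 to 10.33 and from 10.20 to 10.78. They read 9.76 and 10.28 on Vector, and 10.19 and 10.63 on Snail. ESRP1, the epithelial regulator of CD44 exons, read 7.01 on Vector, 7.50 on DHA, 7.07 on TGF-β and 7.06 on TGF-β+DHA, and was not above background on either Snail array. It passed the Snail test as lower (limma, adjusted p = 0.0114), and Vector was at least 1.51-fold above Snail, with the dim array set at the lowest signal above background.

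**Figure D3:**
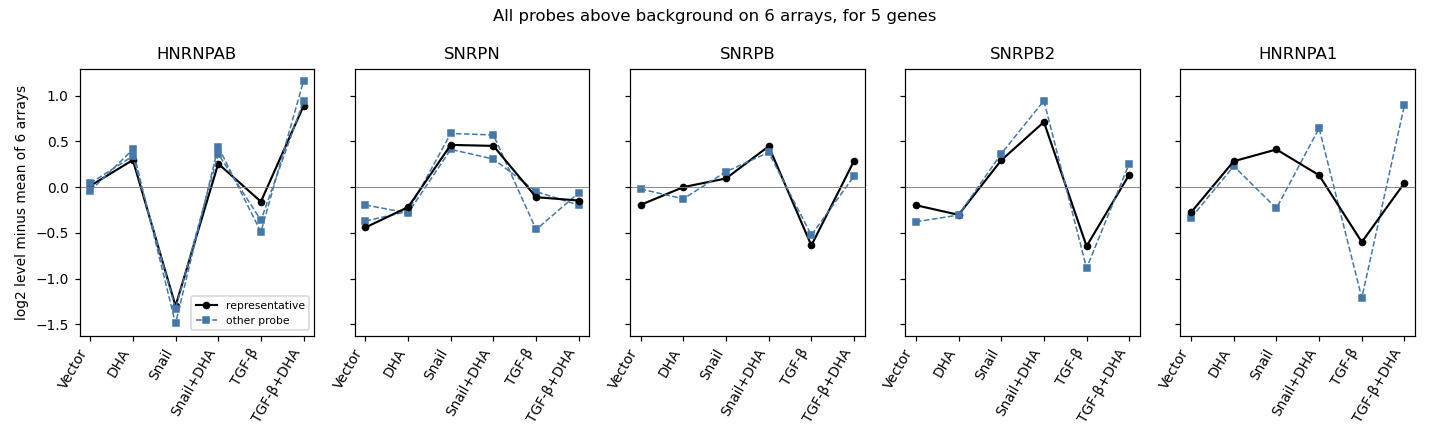
Log2 level minus the mean of the 6 arrays (y) by condition (x, 1 array each) for every probe above background on all 6 arrays of HNRNPAB, SNRPN, SNRPB, SNRPB2 and HNRNPA1. Black lines are the representative probes and dashed blue lines the others. The HNRNPAB probes follow each other, while the HNRNPA1 probes part on the Snail, Snail+DHA, TGF-β and TGF-β+DHA arrays, most on TGF-β+DHA.

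Among the SRSF genes differences were small in the representative probes. SRSF3, a small SR protein that binds many exons, ranged from 8.68 to 8.91 over the 6 arrays. Its other probe ranged from 6.57 to 7.19. SRSF1, the founding SR protein, read 11.42 on Vector, 11.23 on DHA, 10.91 on Snail, 11.04 on Snail+DHA, 11.10 on TGF-β and 11.48 on TGF-β+DHA. Its Snail estimate was −0.35 with a standard error of 0.22 (limma, adjusted p = 0.418). SRSF7 had the widest range of the family, with 9.91 on Snail+DHA and 9.11 to 9.47 on the other 5 arrays. By representative probes, the single SR gene at least 1.5-fold apart in any of the 5 pairs was SRSF5, lower by 0.60 in Snail+DHA than in Snail. The other SRSF5 probe read 11.91 on Snail and 11.42 on Snail+DHA. Another SRSF10 probe read 7.18 on TGF-β and 7.82 on TGF-β+DHA, a wider gap than the 7.36 and 7.83 of its representative probe.

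In the SF3 family SF3B3, a scaffold of the SF3B complex, read 8.50 on Vector, 8.74 on DHA, 8.37 on Snail, 8.98 on Snail+DHA, 8.58 on TGF-β and 9.35 on TGF-β+DHA. All 3 arrays with DHA were above all 3 without it, an order whose share among all genes was not counted. The DHA estimate was 0.54 with a standard error of 0.19 (limma, adjusted p = 0.337). SF3A3, a subunit of SF3A, had the same separation, with 11.48 to 11.62 with DHA and 11.01 to 11.29 without, and an estimate of 0.40 with a standard error of 0.17 (limma, adjusted p = 0.387). SF3B1, which contacts the branch point and is often mutated in blood cancers, went the other way in Snail cells, at 10.29 without and 9.61 with DHA. It read 10.20 on Vector, 9.95 on DHA, 10.02 on TGF-β and 10.03 on TGF-β+DHA. These are values of the representative probe. Another SF3B1 probe above background on all 6 arrays had a smaller gap in Snail cells, at 7.38 without and 7.23 with DHA. That probe read 7.44 on Vector and 6.88 on TGF-β.

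The LSM2 to LSM8 genes, whose proteins form the nuclear ring on U6, read high on Vector against each single treatment. On the Snail array 7 of 7 were below Vector, with a median of −0.26 against 0.01 for all genes. On the DHA array 6 of 7 were below Vector, with a median of −0.32 against −0.01. On the TGF-β array 6 of 7 were below Vector, with a median of −0.18 against 0.03. These pairs share the Vector array, on which 3 of the 7 had their highest level, and under common-median scaling all 7 did. LSM2 read 12.39 on Vector, 12.26 on DHA, 11.96 on Snail, 11.73 on Snail+DHA, 12.24 on TGF-β and 12.04 on TGF-β+DHA. Its Snail estimate was −0.48 with a standard error of 0.18 (limma, adjusted p = 0.159). LSM6 read 8.59 on Vector, 7.82 on DHA, 8.05 on Snail, 8.26 on Snail+DHA, 7.77 on TGF-β and 8.54 on TGF-β+DHA. DHA and TGF-β each read low alone, while the TGF-β+DHA array was close to Vector. LSM10, which belongs to the U7 snRNP that processes histone mRNA and not to the spliceosome, read 8.81 on Vector, 8.69 on DHA, 8.19 on Snail, 9.44 on Snail+DHA, 8.39 on TGF-β and 8.88 on TGF-β+DHA. Snail+DHA exceeded Snail by 1.24, and the grouping of Snail and TGF-β against the rest gave −0.66 with a standard error of 0.26 (limma, adjusted p = 0.654).

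Among the PRPF genes PRPF19, the ubiquitin ligase of the complex that activates the spliceosome, was higher with DHA in each background. It read 8.41 on Vector and 9.30 on DHA, 8.71 on Snail and 9.35 on Snail+DHA, and 8.74 on TGF-β and 9.18 on TGF-β+DHA. The 3 arrays with DHA did not overlap the 3 without it, but the share of all genes separated in this way was not counted. The DHA estimate was 0.65 with a standard error of 0.19 (limma, adjusted p = 0.284). PRPF8, the central scaffold of the catalytic core, read 10.56 on Vector, 10.32 on DHA, 10.48 on Snail, 10.21 on Snail+DHA, 11.39 on TGF-β and 10.60 on TGF-β+DHA. The TGF-β array stood 0.79 above the next, opposite in direction to most SNRP genes on that array. Its TGF-β estimate was 0.56 with a standard error of 0.23 (limma, adjusted p = 0.846), and each array with DHA was below its partner. PRPF31, needed for tri-snRNP assembly and mutated in retinitis pigmentosa, was also highest on TGF-β, at 10.06 against 9.45 on Vector. PRPF4, a tri-snRNP protein, was lowest on Snail at 9.39 and highest on TGF-β+DHA at 10.43.

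Counts of members past a 1.5-fold difference between 2 arrays were then read against all genes. In Snail against Vector 4 of 81 members were higher and 4 lower, against 10.7% and 11% of genes. The 4 higher were SNRPN, HNRNPA1 and the pseudogenes HNRNPA1P10 and HNRNPA1P33, although the second HNRNPA1 probe gave 0.10 where the representative gave 0.69, and the 4 lower were HNRNPAB, SNRPA1, LSM10 and PRPF4. In TGF-β against Vector 4 of 81 were higher, namely HNRNPUL2, PRPF8, PRPF31 and HNRNPU, and 3 lower, namely HNRNPK, LSM6 and SNRPD1, against 7.07% and 4.29% of genes. In DHA against Vector 2 of 81 were higher, PRPF19 and HNRNPA1P33, and 2 lower, LSM6 and HNRNPA2B1, against 2.79% and 4.09% of genes. In Snail+DHA against Snail 4 of 79 were higher, namely HNRNPAB, LSM10, PRPF19 and SF3B3, and 3 lower, namely HNRNPA1P10, SF3B1 and SRSF5, against 6.45% and 8.12% of genes. In these 4 pairs the share of members past the fold was below that of all genes in each direction. The first 3 pairs share the Vector array, and each Snail or TGF-β array enters a pair with its DHA-fed partner as well.

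In TGF-β+DHA against TGF-β the higher members were more frequent than higher genes. There 12 of 80 members were higher (15%) against 8.03% of genes, and 2 were lower (2.5%) against 11.8% of genes. The 12 were 6 SNRP genes (SNRPB, SNRPB2, SNRPC, SNRPD1, SNRPF and SNRPG), 4 HNRNP genes (HNRNPAB, HNRNPL, HNRNPK and HNRNPA1), SF3B3 and LSM6, and the 2 were HNRNPU and PRPF8. Of the 80 members 60 were above 0 (75%), against 46.7% of genes, and the median member difference was 0.24 against −0.03 for all genes. The SRSF median was 0.24, with 8 of 11 genes above 0 and none past 1.5-fold in its representative probe. Under common-median scaling 7 members were higher and 2 lower, and the median was 0.10 against −0.17 for all genes. The share of all genes past 1.5-fold was not taken under that scaling, so these 2 counts cannot be read against it.

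**Figure D4:**
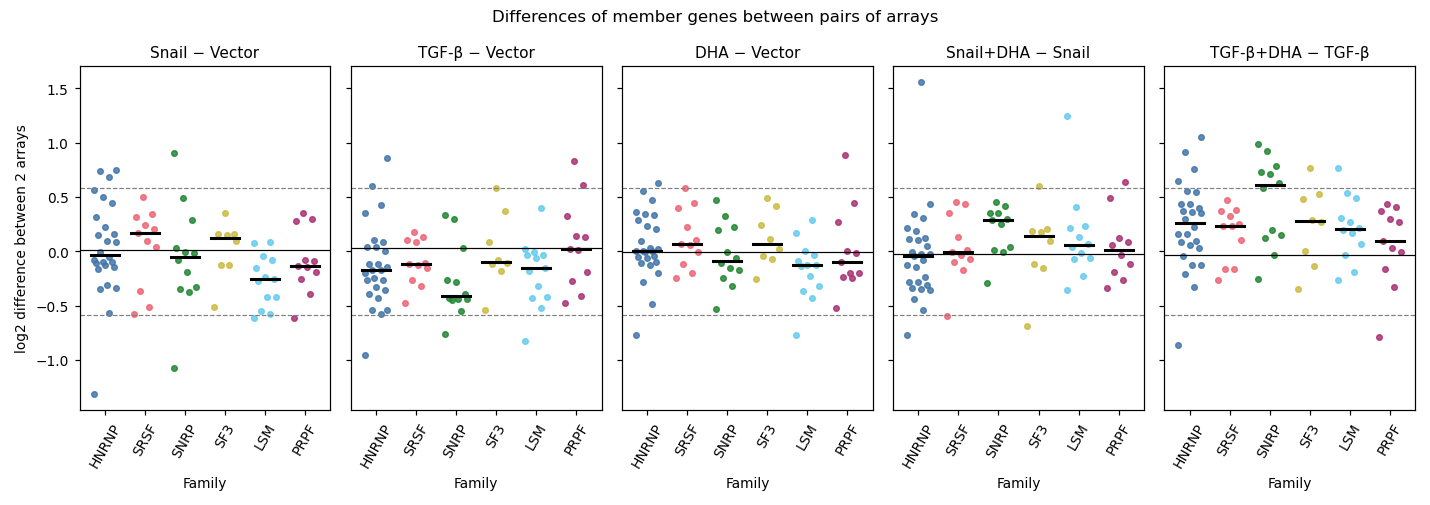
Log2 difference of each member (points) between 2 arrays (y), by family (x), in 5 pairs of arrays (panels). Thick bars are family medians, the thin solid line is the median of all genes, and dashed lines mark 1.5-fold. The SNRP median lies at −0.41 for TGF-β against Vector and at 0.61 for TGF-β+DHA against TGF-β.

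The probes of a gene mostly ran together where differences were large. For 29 members with another probe above background on all 6 arrays, 141 of 200 differences had the same sign in both probes (70.5%), with a median gap of 0.21. Of the 27 differences of at least 1.5-fold in the representative probe, 25 had the same sign in the other probe and 14 were past 1.5-fold there too. The 2 of opposite sign were HNRNPU in TGF-β against Vector and 1 probe of HNRNPK in TGF-β+DHA against TGF-β.

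The other splicing genes gave few calls as well. Of 77 above background, 3 (all lower) passed the Snail test, against 7.8% of all genes, and none passed the other limma tests. At an unadjusted p under 0.05 there were 9 for Snail, 9 for DHA, 3 for TGF-β, 4 for the raft grouping and 5 for the difference of differences. The shares of all genes were 22%, 12.6%, 5.88%, 7.44% and 11.1% in the same order. Besides ESRP1, those passing for Snail were TXNL4A, a U5 snRNP protein (adjusted p = 0.0334), and PTBP3, a relative of the polypyrimidine tract binding protein, lower by 0.87 (adjusted p = 0.0444). TXNL4A was not above background on either Snail array, and Vector was at least 1.49-fold above Snail. PTBP3 read 11.69 on Vector, 11.41 on DHA, 11.02 on Snail and 10.34 on Snail+DHA, and 11.74 and 11.27 on the TGF-β arrays. On the TGF-β array 21 of the 77 had their lowest level (27.3%), and on TGF-β+DHA 22 had their highest (28.6%), against 15.7% and 17.2% of all genes. Under common-median scaling these counts were 10 (13%) against 8.64% of genes and 18 (23.4%) against 15.3%.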

How the data were processed

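Total RNA of HMLE cells was measured on 6 Illumina HumanHT-12 v4 arrays, 1 per condition, all on 1 chip. The authors created the expression files with the IlluminaExpressionFileCreator module in GenePattern and quantile normalized them, and the deposited log2 values were analysed as given. The log base was not stated and was taken from the range of the values. The deposited intensity table held values above the 16-bit limit of a scanner (65535), so it was read as an exponentiated scale. Its signal was restored as 2 to the power of the natural log, which kept the rank order of every array, and served for detection and for other normalizations only. Files give no detection p-values or bead counts, so detection was estimated: a probe was above background where its signal lay above nearly all of a normal curve placed on the peak of low signals of its array, with a tail of 0.05. The number of arrays limits the precision.

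Of the probes, 30113 carried 1 gene symbol, 8 several and 17202 none in the platform annotation, and 20020 of 20046 genes were found in RefSeq. One probe per gene, the one with the highest mean, was used. Tests were made with limma 3.58.1 in R 4.3.3 (lmFit, eBayes with a mean trend) over the 13467 genes above background on at least 1 array, with Benjamini-Hochberg adjustment over all of them. The additive model held background (Vector, Snail, TGF-β) and DHA. Pairs of arrays were compared without a test, with a difference of at least 1.5-fold (0.585 on the log2 scale) counted. The scripts were tested on simulated data. Alternatives were normexp background correction (offset 50) with quantile normalization, common-median scaling, the probe of highest variance, no filter, a filter on all 6 arrays, a variance prior without trend, a 2-fold limit, and leaving out arrays.

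Members and lists were chosen with earlier results of these data known. Members were described where they had the widest range in their family, were among the 12 with the largest difference in any pair, or were on a list of well known splicing genes. The remaining SNRP genes, LSM6, HNRNPA2B1, SF3A3, PRPF4, PRPF31, SRSF5, the smaller groups (LSm ring and SMN complex) and members named beside a small count were added after their values were seen. KRT17 and TP63 were not analysed here.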

Additional observations from a re-analysis of the deposited data

Results flagged for a closer look

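LSM6, a protein of the U6 ring, differed with DHA in opposite directions in 2 backgrounds. TGF-β+DHA was above TGF-β by 0.77, whereas DHA was below Vector (−0.77). The gap between these differences was 1.54. In Snail cells the difference was 0.22. The DHA difference in induced cells minus that in Vector cells was 1.26 with a standard error of 0.37 and did not pass the limma test (adjusted p = 0.205). LSM6 has a single probe, each condition has 1 array, and the difference between the TGF-β and Vector backgrounds alone was not tested.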

How the results depend on the processing

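In the DHA, Snail, TGF-β and raft contrasts, no limma estimate of a member with an unadjusted p under 0.05 changed sign under the alternatives run. The difference of differences was not rerun under them. Of the 35 medians of members and families over the 5 pairs, 12 changed sign under at least 1 alternative, 10 of them under common-median scaling, and all 12 were at most 0.166 in size before. They include the members in Snail+DHA against Snail (0.0151, and −0.15 under common-median scaling), SF3 in Snail against Vector (0.12 and −0.08) and SRSF in DHA against Vector (0.07 and −0.23). Of 40 differences of at least 1.5-fold, none changed sign over 200 values, and 26 values moved by more than the median residual SD of the members (0.18). Common-median scaling, which does not equalize the distributions, shifted the median of all genes by more than 0.1 in the 3 pairs with DHA (to −0.21 in DHA against Vector, −0.18 in Snail+DHA against Snail and −0.17 in TGF-β+DHA against TGF-β). Under it 3 genes passed for TGF-β. Members past 1.5-fold numbered 11 (5 higher, 6 lower) in TGF-β against Vector, 9 (0 higher, 9 lower) in DHA against Vector with a median of −0.285, and 9 (7 higher, 2 lower) in TGF-β+DHA against TGF-β, and 15 members were lowest on TGF-β. With the filter on all 6 arrays, which tests fewer genes, 558 genes passed for Snail (259 higher, 299 lower) and 1 for TGF-β. Without the trend, 1 member passed for Snail (SNRPN) and 0 genes for TGF-β. At 2-fold, 2 members remained in Snail against Vector and 2 in Snail+DHA against Snail, 1 in TGF-β+DHA against TGF-β, and 0 in both other pairs. The share of all genes past the fold was not taken under common-median scaling or at 2-fold, so these member counts stand without one. Leaving out 1 background at a time gave 0 to 839 genes and 0 to 1 members for DHA. The 839 (343 higher, 496 lower) and the member, HNRNPAB, came without the Vector and DHA arrays, 22 genes (all lower) without the Snail pair, and 0 without the TGF-β pair. For TGF-β 33 genes (9 higher, 24 lower) and 0 members passed without the Snail pair, and for Snail 1066 genes and 0 members without the TGF-β pair. The cause of these moves was not tested. The raft grouping gave 0 genes and 0 members under every alternative, leaving out each array or pair included. With 1 array per condition there were no replicates to pair. The DHA contrast already takes differences within backgrounds.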
